A study of Mus musculus with 22 samples.

Results

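The transcripts of 8 genes of the interleukin-12 (IL-12) family and of interleukin-15 (IL-15) signalling were followed in mouse macrophages, namely Il12a, Il23a, Il27, Ebi3, Il12rb1, Il12rb2, Il15 and Il15ra. A gene was taken when an array probe carried a RefSeq accession of its symbol, which gave 11 probes for the 8 genes among 55681 non-control probes, and all 8 were among the 22384 genes tested. Where a gene had several probes, that of highest mean signal was used, and the other probes of Il12rb1, Il12rb2 and Il15ra are described separately. Il12b, which encodes the p40 subunit, had no probe that matched the table of accessions and is not analysed here.

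The cells were bone marrow-derived macrophages (BMDM), grown for 9 days with macrophage colony-stimulating factor from the femurs of C57BL/6 mice aged 10 to 14 weeks, all labelled male. Wild-type (wt) BMDM were compared with BMDM from mice deficient in the kinase MK2 (MK2-/-) and from mice deficient in MK2 and in its relative MK3 (MK2/3-/-). Each genotype was kept for 360 min with 100 ng/ml of the bacterial cell wall component lipopolysaccharide (LPS) or with medium alone. There were 3 LPS-treated and 4 medium-treated arrays of wt, 4 and 4 of MK2-/- and 4 and 3 of MK2/3-/- BMDM. The study's methods describe the replicates as independent experiments, whereas the labels do not tie an array to an animal.

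IL-12 family cytokines are heterodimers of an alpha and a beta subunit. The p35 subunit (Il12a) pairs with p40 to form IL-12 and with EBI3 to form IL-35, the p19 subunit (Il23a) pairs with p40 to form IL-23, and the p28 subunit (Il27) pairs with EBI3 to form IL-27. IL-12 directs T and natural killer cells towards interferon-gamma, IL-23 maintains IL-17-producing T cells, and IL-27 both promotes and restrains T cell responses. IL-12 and IL-23 share the receptor chain IL-12Rb1, whereas IL-12Rb2 belongs to the receptor of IL-12 and not to that of IL-23. IL-15 is bound by IL-15Ra on macrophages and dendritic cells and presented to natural killer and memory T cells.

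All values below are log2 signals after quantile normalisation over the 22 arrays, and differences are log2 differences from limma with a standard error (SE). A difference was called where its p, adjusted by the Benjamini-Hochberg method for all genes tested, was below 0.05. A spot that the scanner software did not find clearly brighter than its surroundings is termed not well above background. Between 61.1% and 82.7% of the probes of an array were well above background, and no spot was saturated. Mapkapk2, which encodes MK2, ranged from 10.8 to 15.3 in wt and from 8.34 to 11.9 in both knockouts, and the wt arrays of a treatment did not overlap with its knockout arrays. Mapkapk3, which encodes MK3, was at most 11.4 in MK2/3-/- BMDM and at least 11.9 in the other genotypes. Of 7 listed macrophage markers, 6 had a matched probe, and these were well above background on all 22 arrays. The genotypes lay on 3 slides, 1 genotype each, so that in a direct comparison of genotypes the slide cannot be told apart from the genotype. Both arrays of replicate 3 of MK2-/- BMDM, 1 with LPS and 1 in medium, went against the label male. Their signals of the Y-linked gene Ddx3y were 1.99 and 2.01, whereas the other arrays had 10.1 to 11.3, and their signals of Xist were 8.18 and 9.12. Replicate 4 of medium-treated MK2-/- BMDM had Xist at 5.37 with Ddx3y at 11.2, and the remaining arrays had Xist at 1.99 to 2.04. The LPS-treated array of replicate 3 also had 2927 spots marked as faulty, and the other arrays had 115 to 261. Without both arrays of replicate 3, the calls of the 8 genes were as with them, except for Il23a as given below.

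The RefSeq promoter table of build GRCm38.p6 held 6 start sites for 4 of the 8 genes. The 250 bases before the start are shown for the 3 genes among them that LPS raised in every genotype, Il12a, Ebi3 and Il15ra. Capitals mark matches, on either strand, to 4 motifs of LPS-activated factors, namely GGGNNTTNC (part of a kappaB site), GAAANNGAA (part of an interferon regulatory factor site), TGANTCA (AP-1) and TTCNNNGAA (a STAT site).
Il12a, upstream start, chr3:68690394-68690643, plus strand: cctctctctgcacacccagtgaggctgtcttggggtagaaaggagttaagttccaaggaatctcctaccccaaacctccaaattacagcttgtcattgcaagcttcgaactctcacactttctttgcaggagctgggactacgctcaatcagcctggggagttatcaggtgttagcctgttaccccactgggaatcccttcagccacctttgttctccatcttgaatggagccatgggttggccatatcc
Il12a, downstream start, chr3:68691174-68691423, plus strand: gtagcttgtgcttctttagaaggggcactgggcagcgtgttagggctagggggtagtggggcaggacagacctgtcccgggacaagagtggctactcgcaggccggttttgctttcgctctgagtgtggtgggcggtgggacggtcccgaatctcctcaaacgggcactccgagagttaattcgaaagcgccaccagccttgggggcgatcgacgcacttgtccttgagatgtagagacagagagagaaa
Ebi3, chr17:55952373-55952622, plus strand: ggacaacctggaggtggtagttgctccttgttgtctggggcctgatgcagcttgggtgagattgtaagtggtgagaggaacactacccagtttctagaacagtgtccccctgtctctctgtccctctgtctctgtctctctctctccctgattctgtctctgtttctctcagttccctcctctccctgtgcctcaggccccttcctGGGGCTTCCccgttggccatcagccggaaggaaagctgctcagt
Il15ra, upstream start, chr2:11705043-11705292, plus strand: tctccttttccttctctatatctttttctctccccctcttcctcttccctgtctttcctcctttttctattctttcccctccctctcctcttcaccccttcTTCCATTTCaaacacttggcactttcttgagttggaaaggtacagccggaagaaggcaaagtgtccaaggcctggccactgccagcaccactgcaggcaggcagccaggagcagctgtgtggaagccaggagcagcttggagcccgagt
Il15ra, downstream start, chr2:11705462-11705711, plus strand: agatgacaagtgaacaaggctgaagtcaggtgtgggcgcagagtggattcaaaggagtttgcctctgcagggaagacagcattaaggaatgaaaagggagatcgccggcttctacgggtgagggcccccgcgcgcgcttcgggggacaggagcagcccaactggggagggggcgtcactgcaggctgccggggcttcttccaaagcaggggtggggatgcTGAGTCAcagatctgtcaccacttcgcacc
Ebi3 held 1 kappaB match beginning 44 bases before its start. Il15ra held 1 match to the interferon regulatory factor motif 149 bases before the upstream start and 1 AP-1 match 30 bases before the downstream start. Neither Il12a window held any of these letters, and Il12rb2, not shown, held 1 STAT match 123 bases before its start. Of all 32851 promoter windows of this length, 13% held the kappaB letters, 7.13% the interferon regulatory factor letters, 6.75% the AP-1 letters and 7.02% the STAT letters. The matches are a description of the letters in these windows and no evidence of binding.

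LPS raised 7 of the 8 genes in at least 1 genotype, and the 5 genes Il12a, Il27, Ebi3, Il15 and Il15ra in all 3. The rises of Il27, Ebi3, Il15 and Il15ra were between 3.01 and 6.19 on the log2 scale, and that of Il12a had only a lower bound. In wt BMDM 6 of 8 genes were called and all 6 were higher after LPS, compared with 42.1% of all genes called and 18.6% called higher. In MK2-/- BMDM 6 of 8 were called, all higher, against 44.6% and 17.5% of all genes. In MK2/3-/- BMDM 7 of 8 were called, all higher, against 48.2% and 20.2% of all genes. The median difference over the 8 genes was 3.47 in wt, 4.25 in MK2-/- and 3.89 in MK2/3-/- BMDM, whereas the medians over all genes were -0.04, -0.01 and 0.01. With the genes not well above background in medium set to their lower bounds, the medians over the 8 genes were 2.68, 3.86 and 3.51. Il12a and Il23a passed the filter on dim probes almost only through LPS-treated arrays, so they could enter the count only by being higher there.

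**Figure D1:**
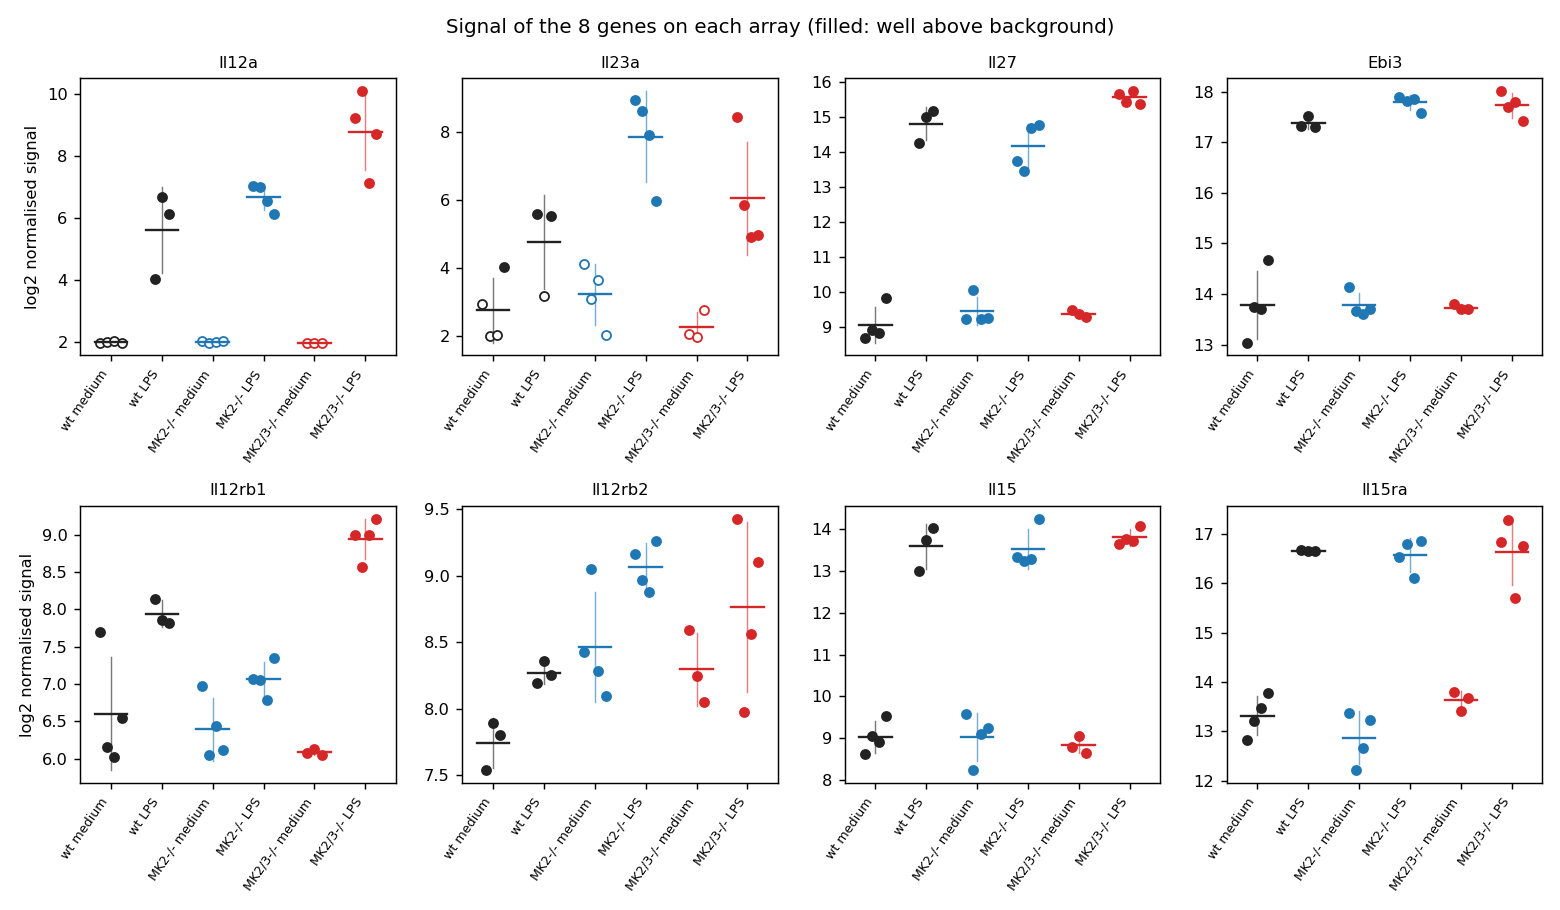
Log2 normalised signal (y axis) of each of the 8 genes on every array, by genotype and treatment (x axis). Each point is 1 array, filled where the probe was well above background, and lines show the group mean and SD. LPS-treated arrays lay above all medium-treated arrays of their genotype for Il12a, Il27, Ebi3, Il15 and Il15ra. The scale of the y axis differs between the panels.

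Il12a encodes p35, the alpha subunit of IL-12. In medium, its log2 signal was 1.99 to 2.04 on the 11 arrays of the 3 genotypes, and no array was well above background. The LPS-treated values were 4.03, 6.66 and 6.12 in wt, 7.02, 7.001, 6.55 and 6.12 in MK2-/- and 9.20, 10.09, 7.12 and 8.70 in MK2/3-/- BMDM. Every MK2/3-/- array lay above every wt and every MK2-/- array, the wt and MK2-/- arrays overlapped, and replicate 1 of wt was the lowest. Since the medium arrays were not above background, the rise with LPS was at least 3.56-fold in wt, at least 8.99-fold in MK2-/- and at least 50.4-fold in MK2/3-/- BMDM (adjusted p = 2.73e-05, 2.86e-07 and 6.67e-09). For these bounds a dim array was set to the higher of its own value and the lowest signal well above background. The bounds hold for the main processing only. Over the 37 alternatives given at the end, the log2 rise was as low as 0.98 in wt, 1.37 in MK2-/- and 3.12 in MK2/3-/- BMDM. It stayed called in all of them. The adjusted p-values come from the limma fit to the medium signals as measured and do not test the bounds. Compared with wt, LPS-treated MK2/3-/- BMDM had 9.01-fold more Il12a (log2 difference 3.17, SE 0.54, adjusted p = 6.06e-04). They also had 4.31-fold more than MK2-/- BMDM (2.11, SE 0.50, adjusted p = 0.00933). The difference between MK2-/- and wt BMDM was 1.06 (SE 0.54, adjusted p = 0.198) and did not pass the test. The order of the means was therefore MK2/3-/- above MK2-/- and wt, and the latter 2 were not separated. The size of the difference between MK2/3-/- and wt depended on the arrays and the processing. It ranged from 2.38 to 3.72 with 1 array left out and from 2.08 to 3.72 over all alternatives. The call against wt was lost when only the 2 groups compared were fitted (adjusted p = 0.0618) and in the methods' t-test once its p-values were adjusted (adjusted p = 0.141). Both also lost the call against MK2-/- (adjusted p = 0.0732 and 0.163). The methods used that test without adjustment, where both comparisons, like the called comparisons of Il23a, Il27 and Il12rb1 below, had a p below 0.05.

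Some markers of dendritic cells, which are a source of IL-12, were also higher in LPS-treated MK2/3-/- BMDM. Of 7 listed markers, 2 were called against wt and 3 against MK2-/- BMDM, beside 23.6% and 13.5% of all genes. Clec9a was higher in LPS-treated MK2/3-/- BMDM than in wt by 2.98 (SE 0.57) and than in MK2-/- BMDM by 2.90 (SE 0.53). It was well above background on 1 of 3 wt and 2 of 4 MK2-/- arrays after LPS. In the main processing, Xcr1 was at least 4.12-fold higher than in wt and at least 4.71-fold higher than in MK2-/- BMDM. Flt3 was higher than in MK2-/- BMDM by 1.60 (SE 0.38), and Ccr7, Cd209a, Dpp4 and Zbtb46 were not called. Xcr1 was well above background on 4 of 4 LPS-treated MK2/3-/- arrays and on no array of the other 5 groups, so it passed the filter on dim probes only through the arrays where it was high. The log2 of the summed signal of the 7 markers was 12.6 to 13.7 in wt, 13.4 to 14.9 in MK2-/- and 13.6 to 15.0 in MK2/3-/- BMDM after LPS, and 8.52 to 10.0 in medium. This sum was led by Ccr7, with means after LPS of 12.6, 13.9 and 14.0 and rises of 4.57, 6.43 and 5.44. The median LPS difference of the 7 markers was -0.67, 0.16 and 2.31 in the same order. With LPS, 2, 2 and 4 of the 7 were called higher, and 1 was called lower in MK2-/- BMDM. A larger share of such cells and more RNA per cell cannot be told apart in bulk RNA, and the part of these cells in the level of Il12a was not tested.

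Il23a, which encodes the p19 subunit of IL-23, was brightest in LPS-treated MK2-/- BMDM. In medium, its log2 signal was 2.93, 2.01, 2.04 and 4.04 in wt, 4.13, 3.08, 3.66 and 2.03 in MK2-/- and 2.06, 1.99 and 2.77 in MK2/3-/- BMDM, and only replicate 4 of wt was well above background. With LPS, these became 5.61, 3.18 and 5.52 in wt, 8.96, 8.63, 7.93 and 5.96 in MK2-/- and 8.45, 5.86, 4.92 and 4.97 in MK2/3-/- BMDM. All MK2-/- arrays lay above all wt arrays, replicate 2 of wt was not well above background, and the MK2/3-/- arrays overlapped with both. LPS raised Il23a at least 19.1-fold in MK2-/- and at least 7.62-fold in MK2/3-/- BMDM (adjusted p = 7.23e-05 and 0.00112). These p-values too come from the fit to the medium signals as measured and do not test the bounds. The bounds again hold for the main processing only. Over all alternatives the log2 rise was as low as 2.09 in MK2-/- and 1.08 in MK2/3-/- BMDM, and it stayed called. In wt BMDM the difference was 2.01 (SE 0.86, adjusted p = 0.0674). It passed the test in 4 of 22 fits without 1 array, namely without replicate 2 of LPS-treated wt (2.81, adjusted p = 0.0235), replicate 4 of medium-treated wt (2.44, 0.0385), replicate 4 of LPS-treated MK2-/- (0.0478) or replicate 1 of LPS-treated MK2/3-/- (0.0318). After LPS, Il23a was 8.60-fold higher in MK2-/- than in wt BMDM (3.10, SE 0.86, adjusted p = 0.0275). This call was lost without replicate 2 of wt (2.31, adjusted p = 0.122), without replicate 1 (adjusted p = 0.0753) or 2 (adjusted p = 0.0712) of MK2-/-, and without both MK2-/- arrays of replicate 3 (3.08, adjusted p = 0.0512). It was also lost when only the groups compared were fitted (adjusted p = 0.0708) and in the methods' t-test after adjustment (adjusted p = 0.151). MK2/3-/- BMDM differed from wt by 1.28 (SE 0.86, adjusted p = 0.293) and from MK2-/- by -1.82 (SE 0.79, adjusted p = 0.137). In the order of the means, MK2-/- stood above wt with MK2/3-/- between them, and neither step next to MK2/3-/- was called. The step to MK2-/- was called without replicate 1 of LPS-treated MK2/3-/- (-2.62, adjusted p = 0.0230) and without replicate 4 of LPS-treated MK2-/- (-2.46, adjusted p = 0.0490).

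Il27, which encodes the p28 subunit of IL-27, had a strong response to LPS in all genotypes. In medium, its log2 signal was 8.68, 8.90, 8.81 and 9.81 in wt, 9.23, 10.06, 9.23 and 9.26 in MK2-/- and 9.47, 9.36 and 9.29 in MK2/3-/- BMDM. The values with LPS were 14.27, 15.00 and 15.17 in wt, 13.75, 13.47, 14.68 and 14.76 in MK2-/- and 15.67, 15.44, 15.75 and 15.39 in MK2/3-/- BMDM. The treatments did not overlap in any genotype, and after LPS every MK2/3-/- array lay above every array of wt and MK2-/-. The rise was 54.3-fold in wt (5.76, SE 0.33), 26.4-fold in MK2-/- (4.72, SE 0.31) and 73.0-fold in MK2/3-/- BMDM (6.19, SE 0.33), with adjusted p = 4.44e-10, 4.17e-10 and 7.29e-11. LPS-treated MK2/3-/- BMDM had 2.63-fold more Il27 than MK2-/- BMDM (1.40, SE 0.31, adjusted p = 0.00522). Relative to wt, MK2/3-/- differed by 0.75 (SE 0.33, adjusted p = 0.108) and MK2-/- by -0.65 (SE 0.33, adjusted p = 0.198). The means thus stood in the order MK2/3-/-, wt and MK2-/-, with no call between neighbours. The call between MK2/3-/- and MK2-/- was lost in the methods' t-test after adjustment (adjusted p = 0.0980).

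Ebi3, which encodes the beta subunit of IL-27 and IL-35, rose with LPS in every genotype and was called by limma in no comparison between genotypes. In medium, its log2 signal was 13.04, 13.75, 13.71 and 14.67 in wt, 14.15, 13.66, 13.61 and 13.71 in MK2-/- and 13.80, 13.70 and 13.70 in MK2/3-/- BMDM. In the presence of LPS, it was 17.32, 17.51 and 17.30 in wt, 17.89, 17.82, 17.86 and 17.58 in MK2-/- and 18.01, 17.70, 17.80 and 17.41 in MK2/3-/- BMDM. All LPS-treated arrays lay above all medium-treated arrays, and replicate 4 of medium-treated wt was the highest of the medium arrays. The rise was 12.0-fold in wt (3.58, SE 0.26), 16.0-fold in MK2-/- (4.00, SE 0.24) and 16.0-fold in MK2/3-/- BMDM (4.00, SE 0.26), with adjusted p of at most 4.15e-09. After LPS, the 95% interval of the difference from wt was -0.14 to 0.95 for MK2-/- and -0.19 to 0.90 for MK2/3-/- BMDM, and that between the knockouts was -0.56 to 0.45.

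**Figure D2:**
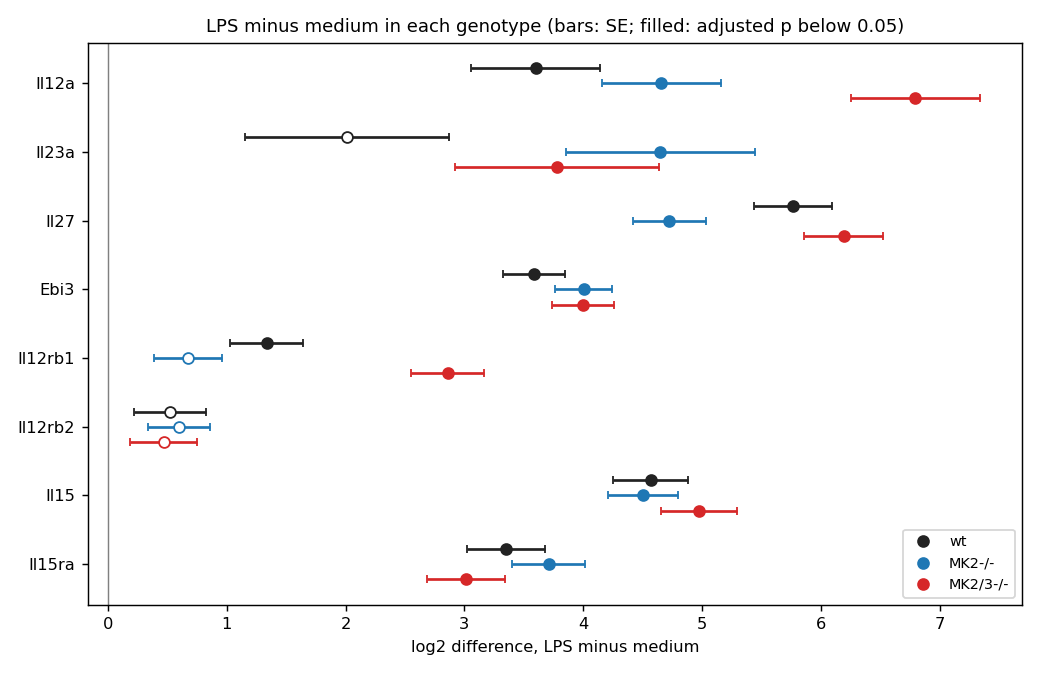
Log2 difference between LPS and medium (x axis) for each gene (y axis) in wt, MK2-/- and MK2/3-/- BMDM. Bars are the SE from limma, and filled points have an adjusted p below 0.05. Il27 reached 5.76, 4.72 and 6.19, whereas Il12rb2 stayed at 0.47 to 0.60 and was not called. The differences of Il12a and of Il23a are drawn against medium arrays mostly not above background.

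Of the 3 receptor genes, only Il12rb1 was called between LPS-treated genotypes. It encodes IL-12Rb1, the chain shared by the receptors of IL-12 and IL-23. In medium, the log2 signal of its brighter probe was 7.69, 6.15, 6.02 and 6.55 in wt, 6.97, 6.05, 6.43 and 6.12 in MK2-/- and 6.08, 6.13 and 6.05 in MK2/3-/- BMDM. After LPS, it was 8.15, 7.86 and 7.81 in wt, 7.07, 7.06, 6.79 and 7.35 in MK2-/- and 8.998, 8.56, 9.002 and 9.21 in MK2/3-/- BMDM. The 3 LPS-treated genotypes did not overlap, with MK2/3-/- highest and MK2-/- lowest. LPS raised Il12rb1 2.53-fold in wt (1.34, SE 0.31, adjusted p = 0.00177) and 7.25-fold in MK2/3-/- BMDM (2.86, SE 0.31, adjusted p = 3.04e-07). The call in wt was lost in the methods' t-test after adjustment (adjusted p = 0.0743). In MK2-/- BMDM the difference was 0.67 (SE 0.29, adjusted p = 0.0642) and was called without replicate 1 of medium-treated wt (adjusted p = 0.0118) or of medium-treated MK2-/- (0.87, adjusted p = 0.0244). After LPS, MK2/3-/- BMDM had 3.67-fold more than MK2-/- (1.88, SE 0.29, adjusted p = 2.77e-04) and 2.00-fold more than wt (1.00, SE 0.31, adjusted p = 0.0253). The difference of MK2-/- from wt was -0.87 (SE 0.31, adjusted p = 0.0706) and was called without replicate 1 of medium-treated wt (adjusted p = 0.0215). The dendritic markers Clec9a and Xcr1, given above, were high in the same LPS-treated MK2/3-/- arrays, and their part in the level of Il12rb1 was not tested. T and natural killer cells also carry this chain. The log2 of the summed signal of their 7 markers after LPS was 12.4 to 12.9 in wt, 13.0 to 13.6 in MK2-/- and 12.9 to 13.7 in MK2/3-/- BMDM, and 12.5 to 14.1 in medium. The 4 B cell markers summed to 7.54 to 8.54 after LPS and 8.99 to 10.5 in medium, and 5 neutrophil markers to 12.0 to 13.7 and 11.6 to 14.0. The call for MK2/3-/- against wt did not hold in the methods' t-test after adjustment (adjusted p = 0.0761) nor in 4 of 22 fits that omitted 1 array, namely replicate 2 (adjusted p = 0.0686) or 3 (0.0784) of LPS-treated wt and replicate 1 (0.0518) or 4 (0.0530) of LPS-treated MK2/3-/-.

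A second probe of Il12rb1 with the same accession gave another picture in part. Its log2 signal in medium was 6.14, 5.63, 7.07 and 6.50 in wt, 5.39, 5.69, 5.22 and 5.04 in MK2-/- and 6.81, 7.02 and 6.92 in MK2/3-/- BMDM. On LPS-treated arrays it was 6.98, 6.63 and 6.42 in wt, 5.28, 4.33, 5.40 and 5.03 in MK2-/- and 8.05, 7.69, 6.92 and 7.06 in MK2/3-/- BMDM. No LPS difference of this probe was called, with values of 0.34 in wt (SE 0.33), -0.32 in MK2-/- (SE 0.30) and 0.51 in MK2/3-/- BMDM (SE 0.33). Replicate 2 of LPS-treated MK2-/- was not well above background. After LPS both probes were higher in MK2/3-/- than in MK2-/- BMDM, the second by 2.42 (SE 0.30, adjusted p = 4.80e-05). The second probe was also higher there in medium, by 1.58 (SE 0.33, adjusted p = 0.00999), where the first gave -0.31 (SE 0.31). MK2-/- BMDM had a lower signal of it than wt both after LPS (-1.67, SE 0.33, adjusted p = 0.00474) and in medium (-1.002, SE 0.30, adjusted p = 0.0482). MK2/3-/- BMDM differed from wt at this probe by 0.75 after LPS (SE 0.33, adjusted p = 0.102), without a call, and their arrays overlapped. Both the LPS response of Il12rb1 and its difference between LPS-treated MK2/3-/- and wt BMDM are therefore uncertain, since they depended on the probe.

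**Figure D3:**
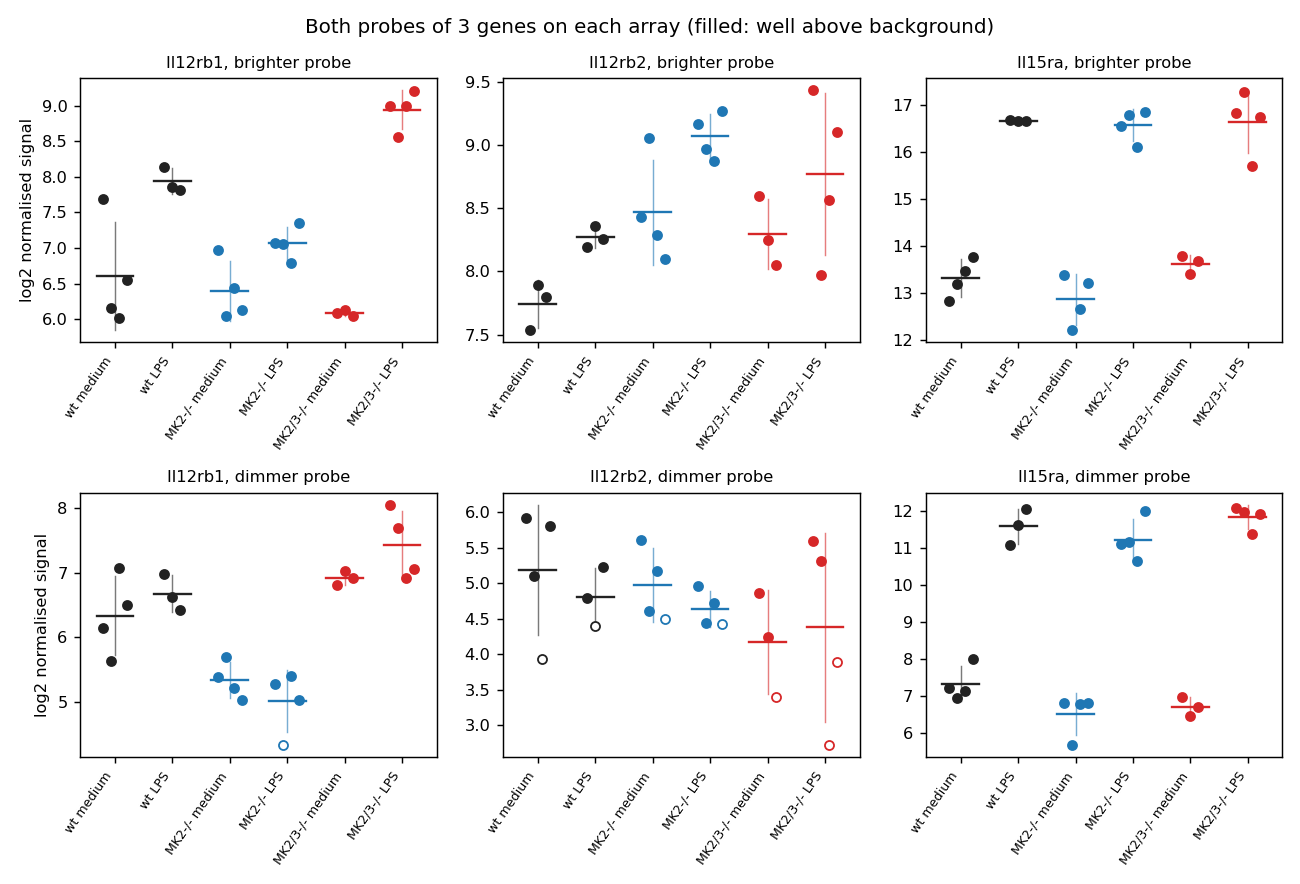
Log2 normalised signal (y axis) of the brighter (top) and the dimmer probe (bottom) of Il12rb1, Il12rb2 and Il15ra on every array, by group (x axis). Points are arrays, filled where well above background, with the group mean and SD. The probes of Il15ra both rose with LPS, whereas only the brighter probe of Il12rb1 did so in MK2/3-/- BMDM, by 2.86 compared with 0.51.

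Il12rb2, the signalling chain of the IL-12 receptor, was called in no comparison of the limma fit to all 22 quantile-normalised arrays, whereas several alternatives gave calls. In medium, the log2 signal of its brighter probe was 7.54, 7.89 and 7.80 in wt, 8.43, 9.05, 8.29 and 8.10 in MK2-/- and 8.60, 8.25 and 8.05 in MK2/3-/- BMDM. The spot on replicate 2 of medium-treated wt was marked as faulty, and the fit used the other 3 arrays. The LPS-treated arrays gave 8.19, 8.36 and 8.26 in wt, 9.17, 8.97, 8.88 and 9.27 in MK2-/- and 9.43, 7.97, 8.56 and 9.10 in MK2/3-/- BMDM. The wt arrays lay below the MK2-/- arrays under both treatments. The difference of MK2-/- from wt was 0.80 after LPS (SE 0.28, adjusted p = 0.0720) and 0.72 in medium (SE 0.28, adjusted p = 0.117). With arrays scaled to their 75th percentile both were called (0.86, adjusted p = 0.0326, and 0.99, adjusted p = 0.0140), as was the difference of MK2/3-/- from wt in medium (0.86, adjusted p = 0.0449). That of MK2-/- from wt after LPS was also called with normexp background correction (adjusted p = 0.0488) and with array weights (adjusted p = 0.0180). It was called too when only the groups compared were fitted (adjusted p = 0.0394) and in the methods' t-test after adjustment (adjusted p = 0.0451). The differences between LPS and medium were 0.53 in wt (SE 0.30), 0.60 in MK2-/- (SE 0.26) and 0.47 in MK2/3-/- BMDM (SE 0.28), with adjusted p between 0.0721 and 0.188. That in wt was called in the methods' t-test after adjustment (adjusted p = 0.0324) and with 75th percentile scaling (adjusted p = 0.0372). That in MK2-/- BMDM was called with this scaling (adjusted p = 0.0469), with normexp background correction (adjusted p = 0.0439) and with array weights (adjusted p = 0.00654). Without replicate 2 of LPS-treated MK2/3-/-, the differences between LPS and medium in MK2/3-/- (0.74, adjusted p = 0.0237) and MK2-/- BMDM (0.60, adjusted p = 0.0322) and those of MK2/3-/- (0.76, adjusted p = 0.0424) and MK2-/- (adjusted p = 0.0373) from wt after LPS were called. Without replicate 1, the LPS difference in MK2-/- (adjusted p = 0.0458) and the difference of MK2-/- from wt after LPS (adjusted p = 0.0467) were called, and without replicate 2 of medium-treated MK2-/- the former (0.80, adjusted p = 0.0186). The dimmer probe was well above background on 15 of 22 arrays and gave LPS differences of -0.39, -0.33 and 0.21, none of them called. Its difference of MK2-/- from wt after LPS was -0.16 (SE 0.58) and was not called.

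Il15, a cytokine that maintains natural killer cells, and Il15ra both rose with LPS, and neither was called between the genotypes. The log2 signal of Il15 in medium was 8.63, 9.04, 8.90 and 9.52 in wt, 9.57, 8.22, 9.09 and 9.24 in MK2-/- and 8.80, 9.05 and 8.65 in MK2/3-/- BMDM. With LPS, it was 12.99, 13.74 and 14.04 in wt, 13.34, 13.25, 13.28 and 14.25 in MK2-/- and 13.64, 13.78, 13.71 and 14.09 in MK2/3-/- BMDM. The treatments did not overlap in any genotype, whereas the genotypes overlapped after LPS. LPS raised Il15 23.7-fold in wt (4.57, SE 0.32), 22.6-fold in MK2-/- (4.499, SE 0.29) and 31.4-fold in MK2/3-/- BMDM (4.97, SE 0.32), with adjusted p of at most 2.78e-09. After LPS, the 95% interval of the difference was -0.73 to 0.61 for MK2-/- minus wt, -0.45 to 0.88 for MK2/3-/- minus wt and -0.34 to 0.89 for MK2/3-/- minus MK2-/-.

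Il15ra encodes the chain that presents IL-15. In medium, the log2 signal of its brighter probe was 12.83, 13.20, 13.47 and 13.77 in wt, 13.38, 12.21, 12.66 and 13.22 in MK2-/- and 13.79, 13.41 and 13.67 in MK2/3-/- BMDM. The signals with LPS were 16.69, 16.66 and 16.65 in wt, 16.55, 16.80, 16.11 and 16.85 in MK2-/- and 16.84, 17.28, 15.70 and 16.75 in MK2/3-/- BMDM. The wt arrays agreed closely after LPS, and replicate 3 of MK2/3-/- was the lowest LPS-treated array. The rise was 10.2-fold in wt (3.35, SE 0.33), 13.1-fold in MK2-/- (3.71, SE 0.30) and 8.08-fold in MK2/3-/- BMDM (3.01, SE 0.33), with adjusted p = 1.70e-07, 8.42e-09 and 3.42e-07. A second probe rose by 4.26 (SE 0.35), 4.71 (SE 0.32) and 5.14 (SE 0.35) in the same order. The intervals of the differences between LPS-treated genotypes at the brighter probe ranged from -0.78 to 0.70.

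Across the 8 genes, each by its brightest probe, the comparisons of LPS-treated genotypes gave 6 calls, all with the higher level in the genotype with more deletions. The second probe of Il12rb1 was called lower in MK2-/- than in wt, as given above. Between MK2-/- and wt BMDM 1 of 8 genes was called (Il23a), compared with 11.6% of all genes. Between MK2/3-/- and wt there were 2 (Il12a and Il12rb1), compared with 23.6%. Between MK2/3-/- and MK2-/- there were 3 (Il12a, Il27 and Il12rb1), compared with 13.5%. The first 2 shares are near those of all genes. The median difference over the 8 genes was 0.18, 0.62 and 0.17, whereas that over all genes was -0.03, -0.02 and -0.06. In medium no gene of the 8 was called at its brightest probe by limma in any of the 3 comparisons, where 8.82%, 2.02% and 2.82% of all genes were called, and 1, 0 and 1 of the 8 had an unadjusted p below 0.05. The second probe of Il12rb1 was called in 2 of them, and Il12rb2 in 2 with 75th percentile scaling.

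When the response to LPS is compared between genotypes, a constant offset of a slide drops out where both treatments were well above background. This was not so for Il12a, nor for Il23a on most medium arrays. By limma, none of the 8 genes was called in any of these 3 comparisons, where 0%, 0.679% and 0.067% of all genes were called, and 2, 2 and 3 of the 8 had an unadjusted p below 0.05. The response of Il12a exceeded that in wt by 3.19 in MK2/3-/- BMDM (SE 0.77, adjusted p = 0.0573) and by 1.06 in MK2-/- BMDM (SE 0.74, adjusted p = 0.792). Since the medium arrays of Il12a were not above background, these differences rest on its LPS levels. The response of Il12rb1 was larger in MK2/3-/- than in MK2-/- BMDM by 2.18 (SE 0.42, adjusted p = 0.0620), and the second probe gave 0.83 (SE 0.44). The difference of Il12a passed the test without replicate 2 of LPS-treated wt (3.72, adjusted p = 0.0383) and without replicate 3 (3.75, 0.0166) or 4 (3.22, 0.0437) of LPS-treated MK2/3-/-. That of Il12rb1 passed it without replicate 1 of medium-treated wt (adjusted p = 0.00936) or replicate 4 of LPS-treated MK2-/- (2.28, 0.0450). Both differences also passed it with paired replicates as a block, as given under the processing. For Il27 the difference between MK2/3-/- and MK2-/- was 1.47 (SE 0.45, adjusted p = 0.325), and for Il23a that between MK2-/- and wt was 2.64 (SE 1.17, adjusted p = 0.652).

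Genes of the receptors and of the signalling downstream of these cytokines moved with LPS in all genotypes. The genes named for their LPS response here and below were picked after their values were seen. Of 17 such genes tested, 12 rose and 1 fell in wt, and 14 rose and 1 fell in each knockout, where 18.6%, 17.5% and 20.2% of all genes rose in wt, MK2-/- and MK2/3-/- BMDM. Socs1 and Socs3, feedback inhibitors of cytokine receptors, rose by 6.05 and 6.69 in wt, 6.91 and 7.45 in MK2-/- and 5.55 and 7.06 in MK2/3-/- BMDM. Il23r, the second chain of the IL-23 receptor, rose by 4.02, 3.13 and 3.27, and Jak2, a kinase bound to the IL-12 and IL-23 receptors, by 3.86, 3.93 and 3.74. Stat4, the main transducer of IL-12, rose by 1.89 (SE 0.41), 3.38 (SE 0.38) and 2.89 (SE 0.41). Il6st, the gp130 chain of the IL-27 receptor, fell, with differences of -1.22, -1.79 and -2.29. Il27ra, the other chain of that receptor, and Il2rb, a signalling chain of the IL-15 receptor, were not called with LPS in any genotype. Between LPS-treated genotypes, 2 of the 17 were called, both in MK2/3-/- against wt, where 23.6% of all genes were called. Il2rg, the common gamma chain, was higher by 1.06 (SE 0.32, adjusted p = 0.0214), and Il6st was lower (log2 difference -1.23, SE 0.41, adjusted p = 0.0378).

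**Figure D4:**
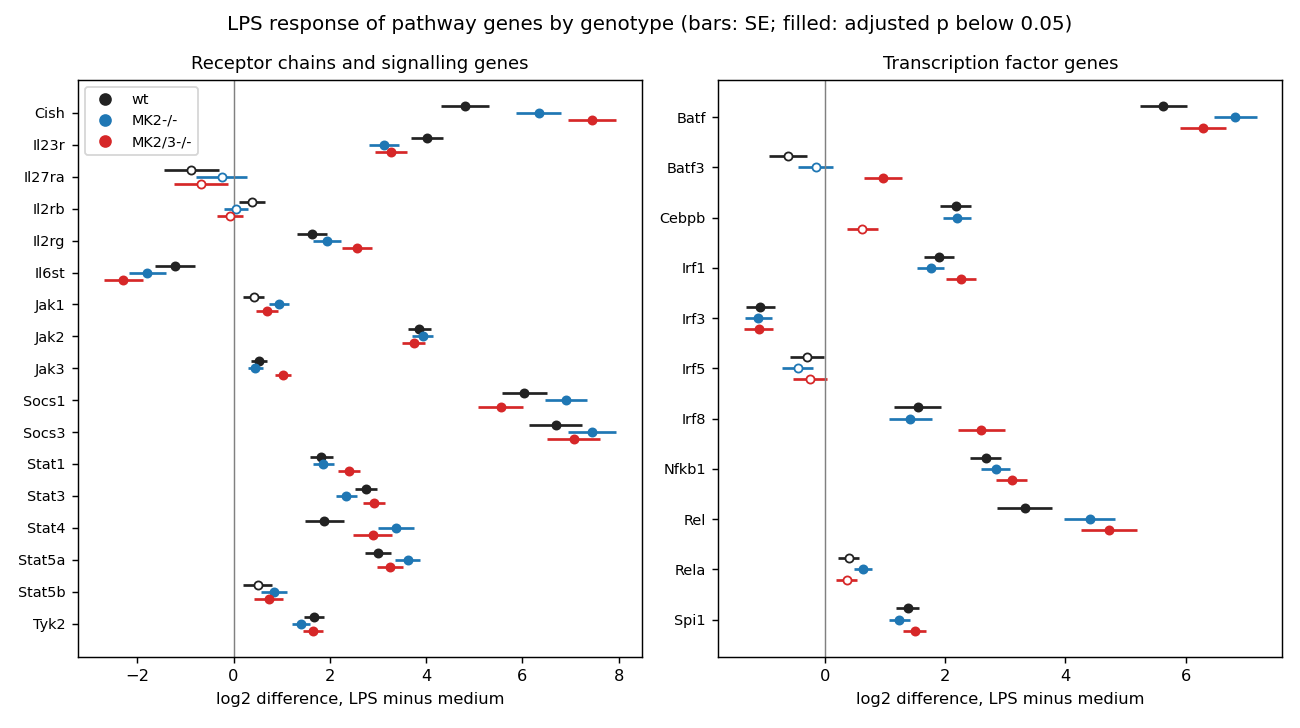
Log2 difference between LPS and medium (x axis) of 17 receptor and signalling genes (left) and 11 transcription factor genes (right) in the 3 genotypes, with the SE from limma as bars and filled points at an adjusted p below 0.05. Socs1 and Socs3 rose by 5.55 to 7.45, whereas Il6st and Irf3 fell in every genotype.

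Of 11 genes of transcription factors that act on these cytokine genes, 7 rose and 1 fell in wt, 8 rose and 1 fell in MK2-/-, and 7 rose and 1 fell in MK2/3-/- BMDM, beside 42.1%, 44.6% and 48.2% of all genes called in either direction. Batf, Rel and Nfkb1 had the largest rises, of 5.63, 3.32 and 2.67 in wt, and Irf3 fell in the 3 genotypes, with differences between -1.11 and -1.08. After LPS, no factor was called between MK2-/- and wt BMDM, and 3 of 11 were called in each comparison of MK2/3-/- BMDM, against 23.6% of all genes relative to wt and 13.5% relative to MK2-/-. Irf8, which activates Il12a and Il27, was higher in MK2/3-/- than in wt BMDM by 1.55 (SE 0.39, adjusted p = 0.00818). Batf3 was higher by 1.43 (SE 0.32, adjusted p = 0.00362) and Cebpb was lower (log2 difference -1.104, SE 0.26, adjusted p = 0.00482). Relative to MK2-/- BMDM, MK2/3-/- BMDM had more Batf3 (0.95, SE 0.29) and Rel (2.00, SE 0.43, adjusted p = 0.00427), which encodes an NF-kappaB subunit active at Il12a and Il23a, and less Cebpb (-1.03, SE 0.24). Irf8 and Batf3 are also needed for the dendritic cells marked by Clec9a and Xcr1, and their part in the levels above was not tested.

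Genes whose signal over the 22 arrays was most like that of the alpha subunits were named by Pearson's r, as a description without a test. All points share the arrays and their treatment. For Il12a these were Ppp1r15a (r = 0.978), Sele (0.974) and Bahd1 (0.973). For Il23a they were Hilpda (0.913), Itgb8 (0.908) and Cacnb3 (0.905). For Il27 they were Serpina3f (0.990), Icam1 (0.989) and Tnf (0.987).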

How the data were processed

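RNA from 22 BMDM cultures was labelled with Cy3 and hybridised to Agilent 1-colour whole mouse genome arrays. The deposited intensity values were extracted and corrected for background, including its spatial trend, with the authors' scanner software (Feature Extraction 11.0.1.1), with multiplicative detrending off per the file headers. The authors also deposited a table of normalised and centred log2 values, which correlated with the values used here at r = 0.992 to 0.999 per array and served as an alternative.

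Faulty spots and 3671 control spots were left out, the processed signal was log2-transformed and quantile-normalised, and replicate spots were averaged. A probe was kept when 3 or more arrays had it well above background (28103 probes, 22384 genes, the probe of highest mean standing for a gene). All 22 arrays in 6 groups were fitted with limma 3.58.1 in R 4.3.3 (lmFit, eBayes) without a block, and p-values were adjusted over all genes. The scripts were tested on simulated data. The number of arrays limits the precision.

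Symbols were taken from RefSeq accessions. The genes named in the text were all 8 genes with every probe, both targeted kinases, the signalling and transcription factor genes called between LPS-treated genotypes and the 3 genes most like each alpha subunit. Cell type markers and sex-linked genes were named as checks, and further pathway genes were named after their values were seen. The 8 genes and all lists were chosen with earlier results of these data known.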

Additional observations from a re-analysis of the deposited data

Results flagged for a closer look

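In 43 groups with values from 4 arrays, over the 11 probes, the gap of the highest or lowest array to its nearest neighbour was set against the range of the group, a test that picks out about 5% of groups by chance. There were 3 such groups. Replicate 2 of medium-treated MK2-/- BMDM had a log2 signal of Il27 of 10.06, above the other 3 arrays at 9.23 to 9.26. Replicate 4 of LPS-treated MK2-/- BMDM had a log2 signal of Il15 of 14.25, above the other 3 arrays at 13.25 to 13.34. At the dimmer probe of Il15ra, replicate 2 of medium-treated MK2-/- BMDM had a log2 signal of 5.67, below the other 3 arrays at 6.77 to 6.82. The calls of Il27 and Il15 were the same without the respective array.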

How the results depend on the processing

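The 96 comparisons of the 8 genes were repeated under 37 alternatives, 22 of which left out 1 array. Of 25 called comparisons, 19 kept their call in every alternative that could test them, and no called value changed sign. Of 3504 pairs of comparison and alternative, 17 lost a call and 64 gained one. For LPS against medium, 19 of 24 comparisons were called, with 19 to 21 when 1 array was left out. For genotypes after LPS, 6 of 24 were called, with 4 to 8 when 1 array was left out, 2 in the methods' t-test with adjusted p-values and 10 in that test unadjusted. In medium, none of 24 was called, and 2 were called with 75th percentile scaling and 2 in the unadjusted t-test. For the LPS response between genotypes, none of 24 was called by limma, with 0 to 1 when 1 array was left out, 1 with normexp background correction, 1 when 11 or more arrays had to be well above background, 1 with only the groups compared and 3 with array weights. The t-test gives no value for this last family. The cause of these differences was not tested. Scaling to the 75th percentile moved the median over all genes by 0.34, 0.29 and 0.28 in the comparisons of LPS with medium, and the share of higher calls from 44.2% to 60.5%, from 39.2% to 53.6% and from 42.0% to 54.1%. The other comparisons moved likewise, after LPS from 39.0% to 63.7%, from 40.7% to 57.3% and from 57.1% to 68.6%, and in medium from 64.7% to 84.0%, from 74.1% to 90.1% and from 70.7% to 89.5%. The median moved by 0.18 after LPS and by 0.11 in medium for MK2/3-/- minus wt. It also gave a call to Il12a in MK2-/- minus wt after LPS (1.53, adjusted p = 0.0449).

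Same-numbered arrays of a genotype deviated together with a correlation over 0.1 in 7 of 10 pairs (lowest -0.09, highest 0.36), compared with 5 of 30 pairs of unlike number. The labels state no pairing and not every pair was over 0.1, so the block was kept as an alternative. With the replicate number as a block, 2 of 24 LPS responses differed between genotypes, namely Il12a in MK2/3-/- minus wt (3.20, adjusted p = 0.0344) and Il12rb1 in MK2/3-/- minus MK2-/- (2.17, adjusted p = 0.0344). With the letter as a block, the same 2 differed (3.27, adjusted p = 0.0278, and 2.18, adjusted p = 0.0301). The replicate block gave 21 calls for LPS against medium, the added ones being Il23a in wt (2.06, adjusted p = 0.0440) and Il12rb1 in MK2-/- BMDM (adjusted p = 0.0462), and 6 after LPS. Leaving out both MK2-/- arrays of low Y-linked signal was chosen after seeing the data.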
